A study of Mus musculus with 2 samples.

Results

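The genes described here build the inner face of the nuclear envelope and tie it to the cytoskeleton: Lmna, Lmnb1 and Lmnb2 (lamins), Emd and Tmpo (inner membrane proteins with a LEM domain), Sun1 and Sun2 (SUN proteins), and Syne1 and Syne2 (nesprins 1 and 2). They were chosen by name as a family, 9 of the 55536 genes in the deposited gene tables, and all 9 were found by symbol, with 88 annotated transcripts. The data are total RNA-seq of the heart of 2 female mice of strain B6CASTF1/J, a first-generation hybrid, at 25 days of age. There was 1 group and no treatment, and each library was built from 300 ng of total RNA plus ERCC spike-ins. The 2 samples are labelled as biological replicates, with separate animal numbers but 1 shared donor label, and are taken as 2 animals here. If they shared a source, each SD below would measure a technical spread. The p-values below are set against counting error between 2 libraries in either case, and measure no spread between animals.

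Lamins are intermediate filament proteins that polymerise into a meshwork, the lamina, under the inner nuclear membrane. Lmna gives lamin A and lamin C by alternative splicing, and Lmnb1 and Lmnb2 each give a B-type lamin. LEM domain proteins bind both the lamina and the chromatin-associated protein BAF. SUN proteins span the inner membrane and hold, in the space between the membranes, the KASH tail of nesprins, which span the outer membrane. Together they form the LINC complex, which passes force from the cytoskeleton to the lamina. Changes in LMNA and EMD cause human diseases that affect skeletal muscle and the heart, among them Emery-Dreifuss muscular dystrophy.

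The sequences that set these forms apart come from the GENCODE M21 transcripts (build GRCm38, the assembly also called mm10), written 5′ to 3′ on the strand of the gene. Lamin A (Lmna-201) and lamin C (Lmna-203) share 568 codons and part within chr3:88482592-88483347 on the minus strand. Lamin C then reads on for 6 codons of its own, and lamin A splices to exon 11 and reads on for 97. In the first pair the capitals mark the bases past the fork.
Lmna-203: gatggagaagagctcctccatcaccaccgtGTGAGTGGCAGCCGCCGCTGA
Lmna-201: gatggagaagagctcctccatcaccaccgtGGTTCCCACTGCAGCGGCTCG
Lamin A also ends in a cysteine codon followed by 3 more codons, the place where prelamin A is farnesylated before it is trimmed. The fourth codon from the end was a cysteine codon in Lmna-201, Lmnb1-201, Lmnb2-201 and Lmnb2-204, and was not in Lmna-203. The ends of lamin A (chr3:88482074-88482348, minus strand, across a splice junction) and lamin B2 (chr10:80902859-80902888, minus strand) are shown with their last 4 codons and the stop codon in capitals.
Lmna-201: cagagctcccagaacTGCAGCATCATGTAA
Lmnb2-201: actacctcaaggggcTGCCGACTGATGTGA

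The short nesprin-1 transcript Syne1-202 has a start of its own inside the gene and reads the last exons of the long transcript Syne1-205, from its exon 130 to its exon 146. It leaves out exon 137 of the long form, which is 69 bases long. Only its first 92 coding bases are absent from Syne1-205, and these are in capitals (chr10:5061537-5068898, minus strand, across a splice junction).
Syne1-202: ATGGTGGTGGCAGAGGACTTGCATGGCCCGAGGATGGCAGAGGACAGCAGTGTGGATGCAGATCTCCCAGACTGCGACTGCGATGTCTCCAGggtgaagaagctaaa
Nesprin-1 and nesprin-2 end in the KASH tail, the part that SUN proteins hold. Of the last 90 coding bases of Syne1-205 (chr10:5022007-5022096, minus strand) and Syne2-210 (chr12:76109955-76110044, plus strand), 68 are the same, or 75.6%. Capitals mark the bases that are identical in both genes.
Syne1-205: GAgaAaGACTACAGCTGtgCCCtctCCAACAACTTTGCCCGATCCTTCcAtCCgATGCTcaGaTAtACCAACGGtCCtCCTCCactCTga
Syne2-210: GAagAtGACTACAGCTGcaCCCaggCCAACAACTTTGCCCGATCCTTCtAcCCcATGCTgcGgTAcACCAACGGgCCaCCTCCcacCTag

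The long and the short Syne1 transcripts also start from different DNA. The 250 bases upstream of each RefSeq start (table on GRCm38) are shown because the 2 transcripts have different estimated levels below. Motifs searched on both strands are in capitals. The letters were TATAAA for the basal promoter box of that name, GGGCGG for the GC box, CCAAT for the box of that name, GATAAG for the site of GATA factors, and CATTCC for the muscle motif bound by TEAD factors. None of these motifs overlaps another in the 2 windows. The long start (chr10:5550693-5550942, minus strand) holds GGGCGG, as 32.74% of 32851 windows of this length do, and none of the other 4 motifs. The short start (chr10:5069064-5069313, minus strand) holds CATTCC, as 12.64% of windows do, and none of the other 4. The short window lies in an intron of Syne1-205 and overlaps the coding exon of Gm10097 on the other strand, a gene at 0.17 and 0.11 TPM.
Syne1 long start: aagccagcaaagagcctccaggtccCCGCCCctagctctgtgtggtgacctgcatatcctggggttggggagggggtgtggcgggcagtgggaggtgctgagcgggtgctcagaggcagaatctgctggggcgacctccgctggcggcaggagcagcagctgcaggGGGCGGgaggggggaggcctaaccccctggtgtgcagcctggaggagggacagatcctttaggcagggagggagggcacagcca
Syne1 short start: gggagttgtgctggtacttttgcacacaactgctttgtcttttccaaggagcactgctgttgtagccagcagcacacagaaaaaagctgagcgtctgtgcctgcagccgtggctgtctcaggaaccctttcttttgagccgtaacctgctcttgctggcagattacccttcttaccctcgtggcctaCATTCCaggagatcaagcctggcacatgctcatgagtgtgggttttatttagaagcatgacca

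Estimated counts summed to 43190646 and 42954475 per library, of which spike-ins took 0.518% and 0.544%, and the 9 genes took 0.0572% and 0.0559% of the counts on genes. Levels are in TPM, transcript abundance per unit of length scaled to a fixed total, a scale on which genes can be compared. Markers that define heart muscle were high: the 7 cardiomyocyte genes, led by the myosin heavy chain Myh6, summed to 33508 and 34852 TPM. Summed levels of most other cell types were lower in replicate 2: fibroblast genes, led by Gsn, at 835 and 695 TPM, endothelial genes, led by Fabp4, at 606 and 471, smooth muscle genes, led by Acta2, at 250 and 189, macrophage genes, led by C1qa, at 46.4 and 37.1, and dividing-cell genes, led by Top2a, at 4.91 and 1.85. Erythroid genes, led by Hbb-bs, summed to 11299 and 10823 TPM, and the neuronal list, led by Tubb3, to 0.2 and 0.41 TPM. Replicate 2 stood apart in liver genes, which summed to 2.83 and 27 TPM, with Alb (albumin) at 0.03 and 13.43 TPM. In whole tissue, fewer cells of a type and less RNA per cell cannot be told apart.

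Lamin genes were dominated by Lmna. Lmna (ENSMUSG00000028063.15, chr3:88480147-88509956, minus strand) stood at 50.78 TPM in the first animal (replicate 1) and 47.94 TPM in the second (replicate 2), a mean of 49.4 ± 2.01 (SD, n = 2) that lies above 94.95% of the 22015 protein-coding nuclear genes. Lmnb1 (ENSMUSG00000024590.8, chr18:56707813-56753424, plus strand) stood at 2.62 and 2.52 TPM, a mean of 2.57 ± 0.0707 (SD, n = 2). Lmnb2 (ENSMUSG00000062075.13, chr10:80901203-80918245, minus strand) stood at 1.76 and 1.54 TPM, a mean of 1.65 ± 0.156 (SD, n = 2). Lmna thus held 92.1% ± 0.0939 of the summed TPM of the 3 lamin genes (SD, n = 2). Both B-type genes rested on few reads, 240 and 241 counts for Lmnb1 and 202 and 184 for Lmnb2, against 3899 and 3888 for Lmna. Lmnb1 was above Lmnb2 in both animals, with deposited credibility intervals that were separate in each, and the log2 ratio of Lmnb2 to Lmnb1 was -0.55 in replicate 1 and -0.68 in replicate 2, computed on TPM plus 0.1.

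**Figure D1:**
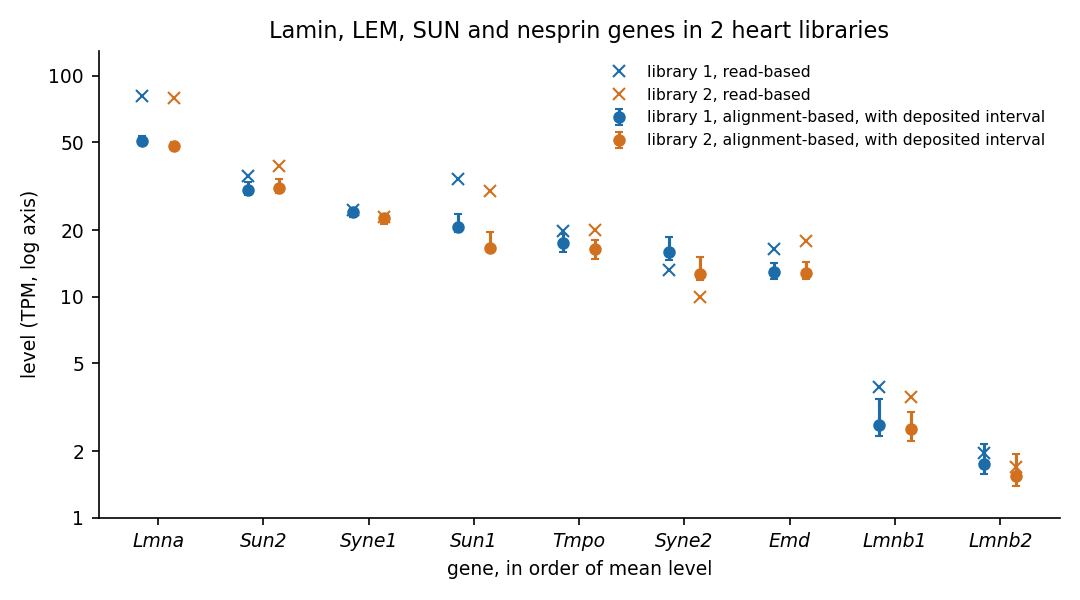
Level of each gene in TPM (log axis) in library 1 (replicate 1, blue) and library 2 (replicate 2, orange), with the deposited credibility interval for the alignment-based values (circles) and without one for the read-based values (crosses). Lmna is highest and Lmnb2 lowest in both libraries and by both quantifications, while Sun1 and Syne1 change places between the quantifications.

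Within Lmna, the lamin C transcript was the larger. Lmna-203, which encodes lamin C (574 codons), stood at 30.25 and 30.45 TPM, with credibility intervals from 26.748 to 32.444 and from 26.697 to 31.567. Lmna-201, which encodes prelamin A (665 codons), stood at 15.97 and 15.67 TPM, with intervals from 13.999 to 16.723 and from 13.67 to 16.367. The intervals of the 2 transcripts were separate in both animals, and lamin A held 34.55% and 33.98% of the summed A and C level, a mean of 34.3% ± 0.407 (SD, n = 2). In estimated counts, which are not divided by length, lamin A held 45.64% and 45% of the same sum. The 2 transcripts differ in sequence from each other: 1247 words of 31 bases occur in Lmna-201 and not in Lmna-203, and 112 the other way round. Neither has a word found in no other Lmna transcript, and lamin C has only 1 that is absent from the other complete coding forms.

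The remaining Lmna transcripts depended on the quantification. The deposited tables come in 2 kinds, one made from alignments and one from reads directly, and the values given so far are of the first kind. Lmna-202, a transcript with its own start in the first intron and 462 codons, the arrangement known for the germ-line form lamin C2, held 6.01% and 1.19% of Lmna in the alignment-based tables, with TPM intervals from 0.529 to 5.532 and from 0 to 3.659. In the read-based tables it held 13.44% and 12.3%. Lmna-206, an incomplete annotated transcript of 785 bases that starts upstream and covers exon 1, held 1.06% and 0.45% in the alignment-based tables and 32.77% and 31.24% in the read-based ones. The read-based level of Lmna was 80.5 ± 1.48 TPM (SD, n = 2), 1.63 times the alignment-based one, and over complete coding transcripts alone the ratio was 1.13. Lamin A held 41.1% ± 0.889 of the A and C level in the read-based tables (SD, n = 2), so lamin C was above lamin A by both.

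**Figure D2:**
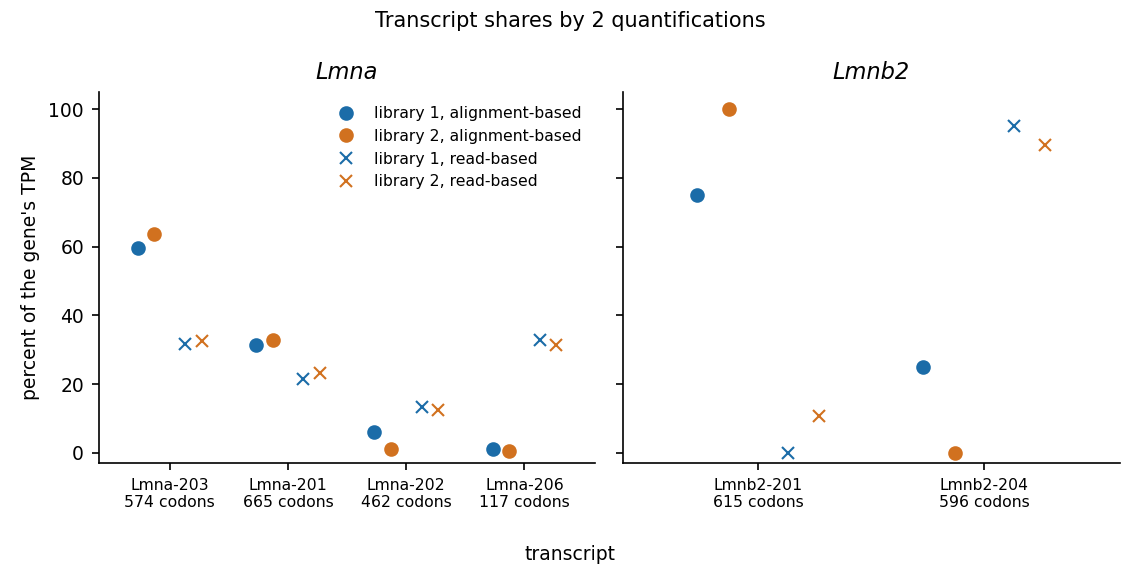
Share of the gene's TPM (percent) held by each main transcript of Lmna and Lmnb2 in library 1 (blue) and library 2 (orange), alignment-based (circles) and read-based (crosses). Libraries lie close together for Lmna within a quantification, and the 2 quantifications place Lmnb2 on different transcripts.

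B-type lamin transcripts were fewer. Lmnb1-201, the complete coding transcript (588 codons), held 98.43% and 100% of Lmnb1 in the alignment-based tables and 70.91% and 79.07% in the read-based tables, where the retained-intron transcript Lmnb1-202 held the other 29.09% and 20.93%. Lmnb2 could not be assigned to 1 form. Lmnb2-201 (615 codons) held 75.05% and 100% in the alignment-based tables, and Lmnb2-204 (596 codons) held 95.17% and 89.43% in the read-based ones. These transcripts differ by little sequence: 161 words of 31 bases occur in Lmnb2-201 and in no other transcript of the gene, and 0 in Lmnb2-204. Their credibility intervals overlapped in both animals, from 0.259 to 1.815 TPM for Lmnb2-201 and from 0 to 1.457 for Lmnb2-204 in replicate 1, and from 0.429 to 1.61 and from 0 to 1.07 in replicate 2.

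Both LEM domain genes were expressed at intermediate levels. Tmpo, which encodes the lamina-associated polypeptides 2 (ENSMUSG00000019961.17, chr10:91147571-91181315, minus strand), stood at 17.58 and 16.44 TPM, a mean of 17.0 ± 0.806 (SD, n = 2). Emd, which encodes emerin (ENSMUSG00000001964.14, chrX:74254687-74261548, plus strand), stood at 12.91 and 12.76 TPM, a mean of 12.8 ± 0.106 (SD, n = 2). Emd-201 (259 codons) was the main Emd transcript, with 94.68% and 99.44% in the alignment-based tables and 85.27% and 74.63% in the read-based ones, where the nonsense-mediated decay transcript Emd-206 held 8.28% and 22.41%. Emd-206 was at 0 in both alignment-based tables.

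Tmpo was divided among several complete coding transcripts. Tmpo-202 (452 codons) was highest, at 4.66 and 4.64 TPM or 26.54% and 28.22% of the gene. Tmpo-201 (693 codons), which reads a last exon that no other complete coding form of the gene has and is the longest of them, the soluble alpha form that lacks the membrane anchor, stood at 3.73 and 4 TPM. Tmpo-201 held 29.8% ± 1.65 of the level of the 5 complete coding transcripts (SD, n = 2). Its intervals, from 3.215 to 4.039 TPM in replicate 1 and from 3.523 to 4.296 in replicate 2, overlapped those of Tmpo-202, from 3.991 to 5.091 and from 3.963 to 5.079, so the order of these forms was not separated in either animal. The retained-intron transcript Tmpo-212 covers the same last exon, and only 29 words of 31 bases occur in Tmpo-201 and in no other transcript of the gene. Tmpo-203 (412 codons) held 10.77% and 16.64%, Tmpo-204 (380 codons) 10.55% and 7.82%, and the noncoding Tmpo-210 13.15% and 11.27%. The 2 animals had the same top form, and by the read-based tables Tmpo-202 also led, with 25.67% and 23.89%.

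SUN genes were both expressed, with Sun2 above Sun1. Sun2 (ENSMUSG00000042524.14, chr15:79724070-79742536, minus strand) stood at 30.5 and 31.23 TPM and was second to Lmna. Sun1 (ENSMUSG00000036817.14, chr5:139200637-139249840, plus strand) stood at 20.66 and 16.63 TPM, and the 2 genes' ranges over the animals did not overlap. The log2 ratio of Sun2 to Sun1 was 0.56 in replicate 1 and 0.91 in replicate 2, a mean of 0.73 ± 0.244 (SD, n = 2). In the read-based tables it was 0.05 and 0.38, so the margin was small there. Over complete coding transcripts alone, Sun2 stood at 27.5 ± 0.686 and Sun1 at 12.1 ± 1.25 TPM in the alignment-based tables, and at 31.6 ± 0.682 and 14.0 ± 1.12 TPM in the read-based ones (SD, n = 2), a choice of transcripts made after the values were seen.

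Their transcripts differed in how much of each gene complete coding forms held. Sun2 was carried by 2 near-identical forms, Sun2-201 (731 codons) with 52.34% and 56.85% and Sun2-203 (729 codons) with 34.52% and 29.96%, of which only 2 and 0 words of 31 bases are found in no other Sun2 transcript. The incomplete Sun2-204 held 3.33% and 6.02%, and 0% and 14.96% in the read-based tables. Sun1 has 6 complete coding transcripts, which held 62.8% and 67.4% of its TPM but 90.2% and 91.6% of its counts. Sun1-205 (790 codons) stood at 5.87 and 4.81 TPM and Sun1-201 (913 codons) at 4.15 and 4.39 TPM, with overlapping intervals in both animals. Incomplete coding transcripts held 28.7% and 24.85% of Sun1, retained-intron transcripts 4.36% and 3.49%, and other noncoding ones 4.11% and 4.21%. The main incomplete ones were short: Sun1-211 (774 bases) with 12.79% and 11.21%, Sun1-217 (621 bases) with 12.9% and 7.94%, and, in the read-based tables, Sun1-212 (566 bases) with 31.54% and 38.5% and Sun1-219 (641 bases) with 11.66% and 3.77%.

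Nesprin genes are the longest of the set. Syne1 (ENSMUSG00000096054.3, chr10:5020917-5551482, minus strand) stood at 24.33 and 22.71 TPM, and Syne2 (ENSMUSG00000063450.14, chr12:75818134-76110926, plus strand) at 15.95 and 12.73 TPM. Syne1 was above Syne2 in both animals, with log2 ratios of 0.61 and 0.83, a mean of 0.72 ± 0.158 (SD, n = 2). The size of this margin depended on the transcripts counted. Over complete coding transcripts alone, Syne1 stood at 20.2 ± 0.827 and Syne2 at 3.745 ± 0.417 TPM in the alignment-based tables (SD, n = 2). In the read-based tables they stood at 18.95 ± 0.605 and 4.583 ± 0.45 TPM. This choice of transcripts was made after the values were seen. Syne1 collected more counts than any other gene of the set, 9142 and 8759, although Lmna and Sun2 were above it by level.

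The short nesprin-1 transcript was estimated at a higher level than the long one. Syne1-202 (949 codons, 3443 bases, 17 exons) stood at 13 and 12.39 TPM, with intervals from 11.976 to 13.49 and from 11.444 to 12.892. It ends at the stop codon of the long form and so holds the KASH tail, but lacks the start codon and the actin-binding calponin homology domains. Syne1-205 (8799 codons, 27908 bases, 146 exons), the giant form, stood at 7.68 and 7.09 TPM, with intervals from 7.334 to 7.72 and from 6.777 to 7.141. In both animals the intervals of the 2 transcripts were separate. Syne1-202 shares 92.54% of its bases with Syne1-205, and 206 of its 3413 words of 31 bases occur in no other Syne1 transcript. Its level therefore depends on how reads over the shared exons were divided, which was not tested. The giant form, the only Syne1 transcript of at least 10000 bases, held 31.4% ± 0.254 of the gene's TPM (SD, n = 2) and 78.8% ± 0.221 of its counts. Syne1-202 held 53.43% and 54.57% of TPM and 16.06% and 16.52% of counts. The read-based tables gave the giant form 34.8% ± 0.691 of TPM and Syne1-202 44.35% and 45.34%, the same order.

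Transcripts that end at the KASH-encoding stop codon, Syne1-202 and Syne1-205, made up 85.4% ± 0.526 of Syne1 TPM (SD, n = 2). Syne1-206, an incomplete transcript over exons 91 to 115 of the giant form, held 12.06% and 11.56%. Transcripts that begin at the start codon of the giant form made up 32.2% ± 0.184.

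**Figure D3:**
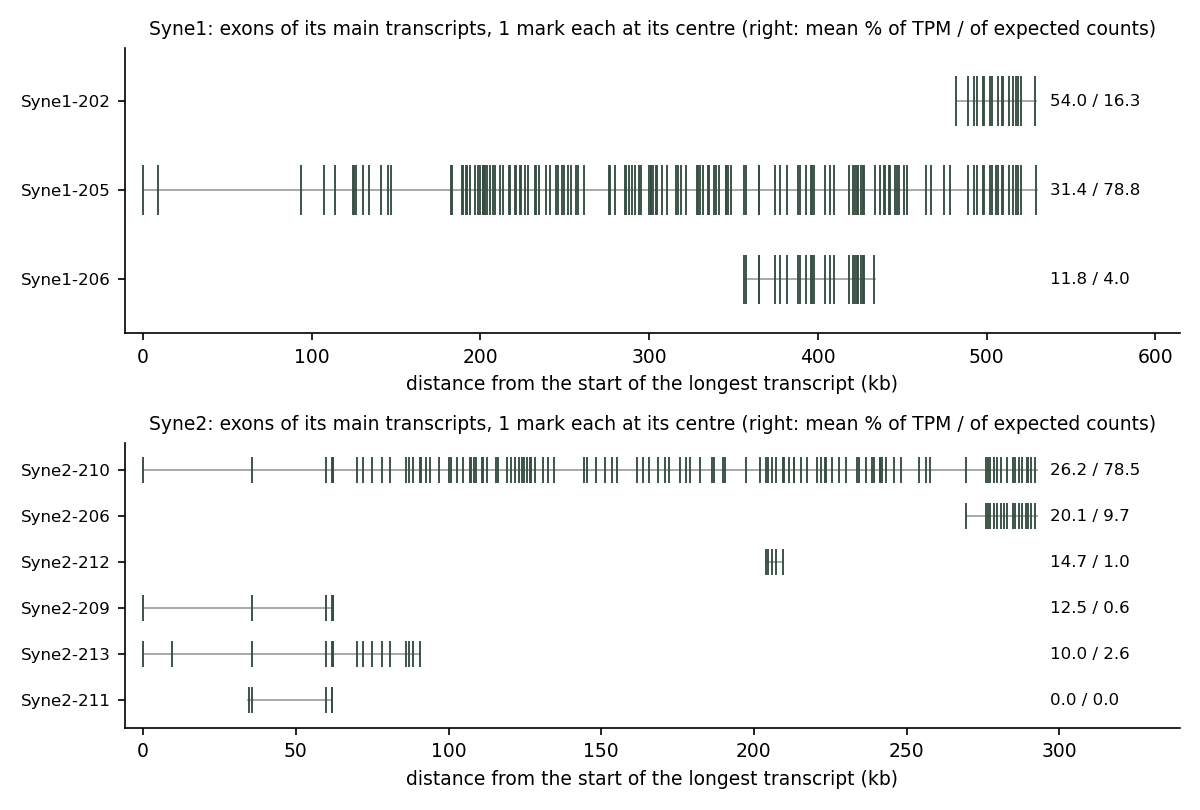
Exons of the main transcripts of Syne1 and Syne2 by distance (kb) from the start of the longest transcript, each exon as 1 mark at its centre, with the mean share of the gene's TPM and of its expected counts at the right. Syne1-202 covers only the far end of Syne1-205 and holds more TPM but fewer counts, while the Syne2 fragments lie at the start, in the middle and at the end of Syne2-210.

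Both complete coding transcripts annotated for Syne2 are long. A complete short form could therefore not be estimated for this gene, and whether the heart makes one was not tested. Syne2-210 (6870 codons, 21704 bases, 115 exons) was the top transcript, at 4.04 and 3.45 TPM or 25.34% and 27.13% of the gene. It took 80.12% and 76.96% of the counts. The other long form, Syne2-201, was at 0 in both alignment-based tables, with intervals up to 0.867 and 0.938 TPM, and held 2.22% and 2.76% in the read-based ones. It shares nearly all its sequence with Syne2-210, which has 60 words of 31 bases found in no other Syne2 transcript. The remaining TPM sat in incomplete or noncoding entries: Syne2-206, of the nonsense-mediated decay class and lying over exons 100 to 115, with 15.95% and 24.19%; Syne2-212 (585 bases) with 20.42% and 8.96%; Syne2-209 (440 bases) with 13.53% and 11.55%; and Syne2-213 (1974 bases) with 7.23% and 12.85%. The read-based tables put 18.37% and 14.8% in Syne2-211 (639 bases), which was at 0 in the alignment-based ones. Long transcripts held 26.2% ± 1.26 of Syne2 TPM in the alignment-based tables and 39.9% ± 3.97 in the read-based ones (SD, n = 2).

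**Figure D4:**
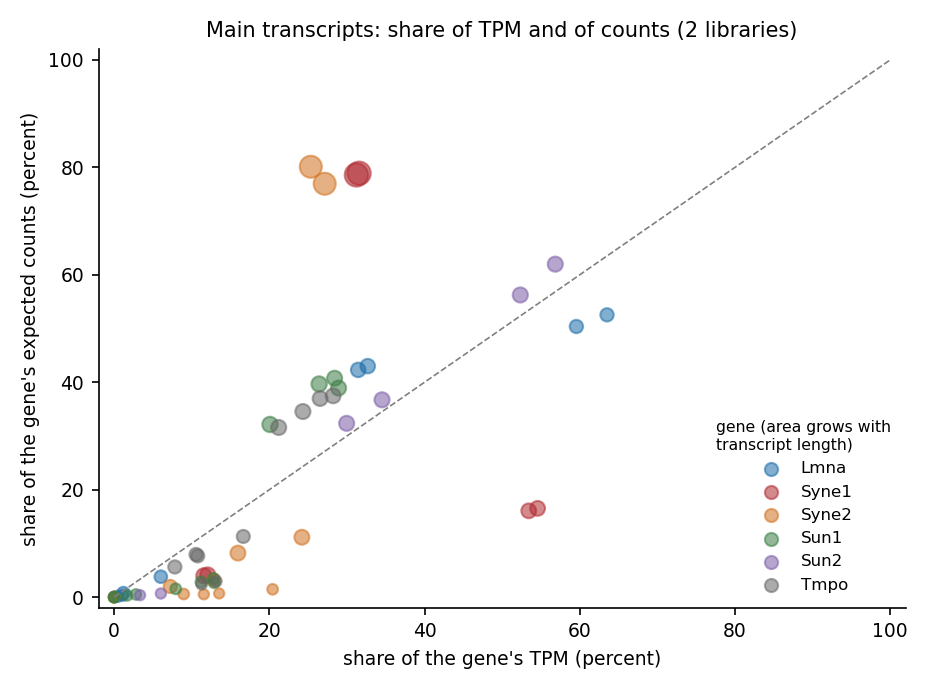
Share of the gene's TPM (x axis, percent) against share of its expected counts (y axis, percent) for the main transcripts of 6 genes, with 2 points per transcript, 1 per library, and area growing with transcript length. The giant transcripts Syne1-205 and Syne2-210 lie far above the dashed line of equal shares, and Syne1-202 far below it.

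The order of the 9 genes by mean TPM was Lmna, Sun2, Syne1, Sun1, Tmpo, Syne2, Emd, Lmnb1 and Lmnb2. Among neighbours, Sun1 and Tmpo overlapped between animals, as did Syne2 and Emd, and each pair had separate intervals in replicate 1 only. Tmpo and Syne2 did not overlap between animals, but their intervals overlapped in both libraries. The order at these steps was therefore not settled. Syne1 and Sun1 had separate intervals in replicate 2 only. In the read-based tables Sun1 came before Syne1, and Emd before Syne2. The step from Emd to Lmnb1 was the widest of this order, 4.93-fold in replicate 1 and 5.06-fold in replicate 2. Over complete coding transcripts alone, the alignment-based order changed. Sun1 (12.1 ± 1.25 TPM) came after Tmpo (13.0 ± 0.0778) and Emd (12.7 ± 0.148), with ranges over the animals that overlapped (SD, n = 2). Syne2 (3.745 ± 0.417) came just before Lmnb1 (2.55 ± 0.0424), so Emd and Lmnb1 were not neighbours there.

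The wider nuclear envelope was described through 7 further lists of 71 genes in all. Of these, 62 (87.32%) reached 1 TPM in each of the 2 animals, which is called detected here, against 49.84% of protein-coding nuclear genes. The median over the 71 genes, detected or not, was 8.57 ± 0.615 TPM, against 1.12 ± 0.085 TPM over all protein-coding nuclear genes (SD, n = 2). Over the detected protein-coding genes alone, the median was 8.81 ± 0.424 TPM. All 9 lamin and linker genes were detected, and their median was 17.0 ± 0.806 TPM.

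Other LINC genes were low: of 7, only Syne3 (nesprin-3, which binds plectin) was detected, at 2.66 ± 0.12 TPM, followed by Sun3 at 0.71 and 0.64 TPM and Lrmp at 0.77 and 0.41 TPM. Sun5, a testis gene, was at 0 in both. Inner membrane and LEM domain genes were detected in 7 of 10 cases, led by Banf1, which encodes BAF, at 50.6 ± 0.29 TPM, Tmem201 (SAMP1) at 33.0 ± 2.07 TPM and Lemd2 at 10.8 ± 0.806 TPM. All 6 genes of prelamin A processing were detected, among them Narf, which binds prelamin A, at 46.2 ± 1.58 TPM, Fnta, the shared alpha subunit of the farnesyltransferase, at 27.7 ± 0.948 TPM, and Icmt, the methyltransferase of the farnesylated cysteine, at 10.2 ± 0.113 TPM (SD, n = 2 for each).

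All 6 genes of the torsin system, AAA+ ATPases of the space between the membranes and their partners, were detected, led by Tor1aip1 (LAP1, a torsin activator) at 28.6 ± 1.08, Tor1aip2 at 19.7 ± 1.89 and Tor1b at 9.61 ± 0.332 TPM. Muscle-enriched envelope genes were higher, with 5 of 5 detected and a list median of 38.6 ± 3.4 TPM: Tmem38a (TRIC-A, a potassium channel of the sarcoplasmic reticulum) stood at 178 ± 2.85, Mlip (the muscle lamin-interacting protein) at 53.4 ± 1.6 and Wfs1 at 38.6 ± 3.4 TPM. All 27 nuclear pore genes were detected, at a list median of 6.25 ± 0.424 TPM, with the highest levels in Tpr at 46.6 ± 1.56, Sec13 at 28.0 ± 1.46 and Ranbp2 at 19.0 ± 0.813 TPM. All 10 cytoskeletal partners of nesprins were detected, with Actn2 (sarcomeric alpha-actinin) at 726 ± 9.11, Plec (plectin) at 114 ± 1.61 and Kif5b (kinesin-1 heavy chain) at 45.6 ± 1.89 TPM (SD, n = 2 for each).

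The last comparison asked whether the 2 libraries differed in these genes by more than counting error. Each gene's reads were split between the libraries and tested with a two-sided exact binomial test against TMM library sizes, for the 15850 genes whose counts averaged 10 or more, with Benjamini-Hochberg adjustment over all of them. It compares 2 libraries and not 2 conditions. A gene was called when its adjusted p was under 0.05, its ratio at least 2 and its credibility intervals separate, which held for 120 genes, or 0.757%. None of the 9 genes was called. An unadjusted p under 0.05 in this exact test was found for 3 of the 9, against 4733 of all 15850 genes tested. At any ratio, 3223 genes, or 20.3%, passed an adjusted p of 0.05, and 1 of the 9 did, a share of 11.11% that is not above this background.

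That gene was Sun2, with 3553 and 3705 counts and a ratio of replicate 2 to replicate 1 of 1.08 (95% exact interval 1.03 to 1.13, adjusted p = 0.0116 in the exact binomial test). The next were Sun1, with 1759 and 1559 counts and a ratio of 0.915 (0.854 to 0.98, adjusted p = 0.0544 in the exact test), and Syne2, with 3683 and 3385 counts and a ratio of 0.949 (0.906 to 0.995, adjusted p = 0.111 in the exact test). Which of these 3 passed turned on the scaling: scaled by total gene counts, Sun1 and Syne2 passed and Sun2 did not, and scaled by spike-in totals Sun1, Syne1 and Syne2 passed, with Sun2 at a log2 ratio of -0.00099. Of all genes tested, 19.73% passed with total gene counts and 26.09% with spike-in totals. Spike-in scaling moved the median log2 ratio of all genes tested by -0.108. For the other 6 genes the intervals included 1. The median size of the log2 ratio over the 9 genes was 0.075, against 0.138 over all genes tested, and their median log2 ratio was 0.042, against 0.009.

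**Figure D5:**
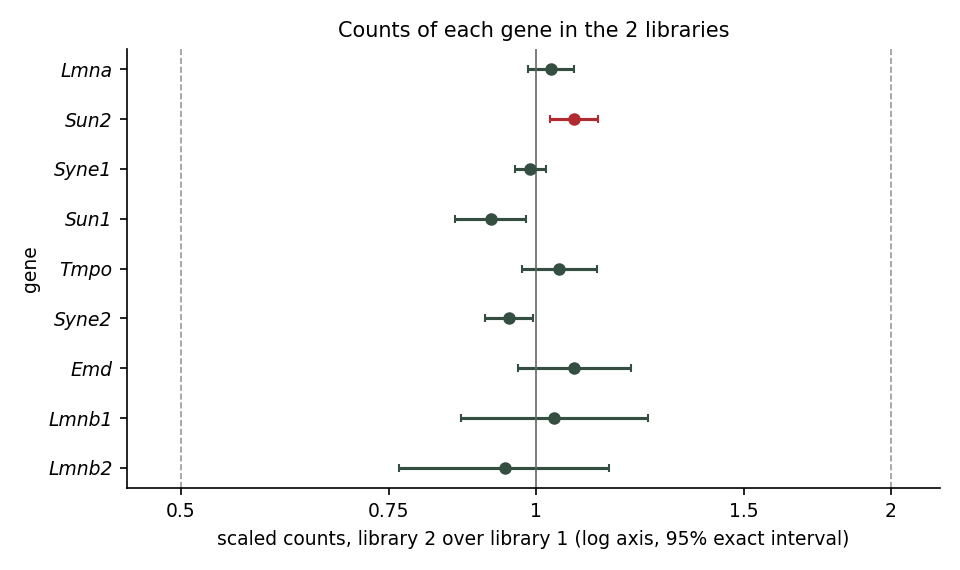
Ratio of scaled counts in library 2 to library 1 for each gene (log axis) with its 95% exact binomial interval, Sun2 in red because it passed an adjusted p of 0.05 at any ratio. All 9 ratios lie between 0.915 and 1.08, far inside the dashed lines at 0.5 and 2.

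By TPM, Sun1 and Syne2 differed most between the libraries. Sun1 was 1.24 times higher in replicate 1 by TPM and 1.13 times by unscaled counts, and its deposited length, an average over its transcripts, was 2619 bases in replicate 1 and 2785 in replicate 2. Syne2 was 1.25 times higher in replicate 1 by TPM and 1.09 times by unscaled counts, with deposited lengths of 6931 and 7715 bases. The short Syne2-212 stood at 3.26 TPM (interval 2.235 to 4.338) in replicate 1 and 1.14 TPM (0.579 to 1.868) in replicate 2, with separate intervals.

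Of the 71 genes of the wider lists, 65 were tested, and none was called with a ratio of at least 2. In the exact test, 13 had an unadjusted p under 0.05, against 4733 of all 15850 genes tested. At any ratio 8 passed, a share of 12.31% against the 20.3% of all genes. Tmem38a, Plpp7, Nup88, Nup93, Actn2, Plec and Akap6 were higher in replicate 2 and Pom121 higher in replicate 1, at log2 ratios of 0.12, 0.24, 0.19, 0.29, 0.09, 0.06, 0.16 and -0.38, except that Actn2 and Plec were lower in replicate 2 under spike-in scaling. All 7 cardiomyocyte genes were also higher in replicate 2, by a median log2 ratio of 0.134 (5 of 7 under spike-in scaling, with Actc1 and Ryr2 lower), and all 6 endothelial and 5 smooth muscle genes lower, by medians of -0.16 and -0.363, and the part of these values, and of the liver genes, in the ratios of the lamin and linker genes was not tested.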

How the data were processed

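Total RNA-seq of 2 heart libraries was analysed. Per the deposited file listing, reads were quantified on mm10 with GENCODE M21. The quantification software is not given in the sources used here. Per the file headers, the authors deposited estimated counts (expected counts), TPM, credibility bounds of TPM (a score whose level is not given) and the percent of each gene's TPM per transcript, all alignment-based, and read-based tables with estimated counts and TPM per transcript. Read-based transcripts were summed to genes.

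Genes were matched by symbol in GENCODE M21 and all matched. Rounded expected counts were compared between the libraries by an exact binomial test (scipy 1.17.1) with TMM sizes from edgeR 4.0.16 in R 4.3.3. DESeq2 1.42.0 gave alternative size factors. No fit between groups exists with 1 group. The test was checked on simulated counts that varied by counting error only, so this check could not cover spread between animals. Intervals cover counting error only. Paralogs and overlapping genes can share reads: every gene that overlaps one of the 9 was at or below 0.17 TPM in both libraries.

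The members and all lists were chosen with earlier results of these data known. Named were all 9 genes, their transcripts with at least 10% of the gene in a sample by either quantification, lamin A and C, the longest nesprin transcripts, the 3 highest genes of each wider list, list genes past the test, and the highest gene of each cell type list. Sun5, Plpp7, Nup88, Nup93, Akap6 and Pom121, and the shares and levels over complete coding transcripts, were chosen after their values were seen. Motif windows hold the 250 bases upstream of each RefSeq start. The other settings tried were scaling, filters, TPM type, pseudocount, detection level and the length that counts as long.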

Additional observations from a re-analysis of the deposited data

How the results depend on the processing

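No paired analysis was possible because there is 1 group, and leaving out a library leaves no library comparison. None of the log2 ratios of 2 genes changed sign. Shares and counts cannot be negative, so only their size could move. The read-based tables put Sun1 before Syne1, Emd before Syne2 and Lmnb2-204 before Lmnb2-201. Spike-in scaling turned the library log2 ratios of Lmna (-0.0655), Sun2 (-0.00099), Tmpo (-0.042) and Lmnb1 (-0.055) from above to below 0. None of these 4 genes passed the test under that scaling. With read-based TPM, Lmna held 93.5% of the lamin genes (91.7% with posterior means), lamin A 41.1% of A and C, and the log2 ratios were 0.22 for Sun2 over Sun1, 1.04 for Syne1 over Syne2 and -0.99 for Lmnb2 over Lmnb1 (-0.43 with a pseudocount of 1). Long transcripts held 34.8% of Syne1 and 39.9% of Syne2 with read-based TPM, 78.8% and 78.5% with expected counts, 31.8% and 32.8% when long meant 5000 bases, and 32.0% and 36.0% over protein-coding transcripts, and Syne2 24.4% with posterior means. Expected counts are not divided by length. The cause of the other shifts was not tested.

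At any ratio, 3 of the 9 genes passed with DESeq2 size factors, 2 with total gene counts, 3 with spike-in totals and 2 with a mean count of at least 100, against 1. Of all genes tested, 19.82%, 19.73%, 26.09% and 26.84% passed under these settings, in that order, against 20.33%. None of the 9 genes passed with a minimum ratio of 2 under the alternatives run, nor with one of 1.5. Detected envelope genes ranged from 44 (at 5 TPM) to 65 (TPM rescaled to coding genes). Of the 9 gene levels, 8 were higher read-based and Syne2 was lower. Over complete coding transcripts alone, 6 of the 9 levels moved by at least their SD over the animals. Without replicate 1 and without replicate 2, Sun2 over Sun1 was 0.91 and 0.56, and Syne1 over Syne2 0.83 and 0.61. With 240 and 241 counts for Lmnb1 and 202 and 184 for Lmnb2, depth limited the B-type lamins most.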
